A study of Mus musculus with 21 samples.

Results

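The transcripts of 10 chemokine ligands, Ccl17, Ccl22, Ccl5, Ccl3, Ccl4, Ccl6, Ccl9, Cxcl9, Cxcl10 and Cxcl16, were followed through the subset, tissue and maturation state of conventional dendritic cells (cDCs). They were picked by gene symbol from the 37734 genes listed for each library, and all 10 were found. RNAseq had been performed on pools of B6 (C57BL/6) mice aged 6 to 8 weeks, whose CD11c+ cells were enriched on beads and then FACS-sorted. cDC1 were CD24+ CD11b- cells that also lacked B220, F4/80, Ly6G, Ly6C and DX5, whereas cDC2 were CD24- CD11b+ cells for which the labels name B220 as excluded and the study's general gating also F4/80. Immature cells carried neither CCR7 nor ESAM and came from the spleen or the thymus, and mature cells carried both and came from the thymus. This gave 6 groups, with 4 samples each of splenic immature and thymic immature cDC1 and 3 each of thymic mature cDC1, splenic immature cDC2, thymic immature cDC2 and thymic mature cDC2. Samples come from pools of mice, but the labels do not say whether each sample is a separate pool. Nothing in them tells how much of the spread between samples is technical. Because sorted populations were sequenced in bulk, fewer cells of a type and less RNA per cell cannot be told apart.

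The libraries held 14266867 to 40119669 reads, and splenic cDC1 replicates 4 and 5, which differed by less than any other pair of their group (chi-square per degree of freedom 2.52 against 26.8 to 190.4), were counted as 1 sample. Thymic immature cDC1 replicates 3 and 4 also share a name number, index and lane. They were far apart, at a chi-square of 100.5 per degree of freedom, and were kept as 2 samples. Splenic cDC1 replicate 1, in lane 5, was also kept apart, although it has the same name number as replicates 4 and 5 in lane 8. The 4 samples of each of these groups thus carry 3 name numbers. Averaging all libraries of a group that share a name number changed no ligand's call or direction. Both mature groups were sequenced in lane 8, as were 3 thymic immature cDC1 and 2 thymic immature cDC2 samples. The sorted identity was visible in the summed normalised read count of 8 subset markers, which for the cDC1 list (Xcr1 and Clec9a among them) was 103098 to 114188 in splenic cDC1 against 3242 to 4506 in splenic cDC2. In mature cells the same list gave 46282 to 53519 in cDC1 and 16429.6 to 24139 in cDC2, and the cDC2 list (Sirpa and Itgam among them) gave 2469.6 to 3780.3 and 14595 to 19741. Mature cells also summed to 1886 to 2579 (cDC1) and 1126 to 1847 (cDC2) over 10 T cell and thymocyte genes, above the 206 to 292 and 236 to 429.9 of the immature thymic cells, and each of the 10 was above 0 in every thymic group. Over 9 thymic epithelium and stroma genes the sum was 62.1 to 86.5 in splenic, 601 to 726 in immature thymic and 1805 to 2603 in mature cDC1, and 97.8 to 156, 3507 to 3877 and 3821 to 4881 in cDC2.

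Chemokines are small secreted proteins that guide leukocyte migration through G-protein-coupled receptors on the responding cell. CCL17 and CCL22 share the receptor CCR4, CCL3, CCL4 and CCL5 are inflammatory chemokines that attract T cells and monocytes, CCL6 and CCL9 are mouse ligands of CCR1, CXCL9 and CXCL10 are interferon-inducible ligands of CXCR3, and CXCL16 is a membrane-anchored ligand of CXCR6 that can be shed. In the thymus, CCR4 ligands are known to help bring selected thymocytes into the medulla, where dendritic cells present self antigen. Most of these genes sit in small clusters in the genome, so that neighbours with related receptors can be compared.

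In the mm10 annotation of GENCODE M21, Ccl22 (ENSMUSG00000031779, chromosome 8 from 94745590 to 94751699) and Ccl17 (ENSMUSG00000031780, chromosome 8 from 94810453 to 94812036) lie on the same strand with lower coordinates 64.9 kb apart and Cx3cl1 between them. Cxcl9 (ENSMUSG00000029417, chromosome 5 from 92321347 to 92328079) and Cxcl10 (ENSMUSG00000034855, chromosome 5 from 92346638 to 92348889) have lower coordinates 25.3 kb apart. Ccl5 (ENSMUSG00000035042, chromosome 11 from 83525778 to 83530518), Ccl9 (ENSMUSG00000019122, chromosome 11 from 83572919 to 83578636), Ccl6 (ENSMUSG00000018927, chromosome 11 from 83587882 to 83593087), Ccl3 (ENSMUSG00000000982, chromosome 11 from 83647844 to 83649355) and Ccl4 (ENSMUSG00000018930, chromosome 11 from 83662584 to 83664683) lie in 1 cluster, with 136.8 kb between the lower coordinates of Ccl5 and Ccl4. Cxcl16 (ENSMUSG00000018920, chromosome 11 from 70453983 to 70459984) lies apart from them on the same chromosome. Of 50-base stretches of transcript sequence, 1.97% of those of Ccl9 and 0.472% of those of Cxcl9 also occurred in other genes, and 0% of those of the 8 other members did.

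RefSeq promoter windows of build GRCm38.p6 were matched by symbol for 7 members. The sequences of the pairs Ccl22 and Ccl17, which both rose from spleen to thymus, and Cxcl9 and Cxcl10, which did not change alike, are given 5′ to 3′ on the strand of the gene, up to 250 bases before the start. They lie at chr8:94745434-94745589 and chr8:94810203-94810452 (plus strand) and at chr5:92328080-92328329 and chr5:92348890-92349139 (minus strand), and for Ccl22 the 94 bases nearest to the RefSeq start were left out because GENCODE counts them as exon. Capitals mark matches to the motifs searched on both strands, where overlapping matches run together.
Ccl22: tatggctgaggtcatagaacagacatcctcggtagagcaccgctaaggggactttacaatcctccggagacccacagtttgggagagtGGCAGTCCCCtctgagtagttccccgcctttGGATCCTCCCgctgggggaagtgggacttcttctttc
Ccl17: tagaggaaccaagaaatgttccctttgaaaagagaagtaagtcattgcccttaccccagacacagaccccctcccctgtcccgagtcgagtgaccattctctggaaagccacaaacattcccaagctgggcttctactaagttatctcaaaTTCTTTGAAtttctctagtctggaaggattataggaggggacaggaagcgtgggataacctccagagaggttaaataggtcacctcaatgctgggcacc
Cxcl9: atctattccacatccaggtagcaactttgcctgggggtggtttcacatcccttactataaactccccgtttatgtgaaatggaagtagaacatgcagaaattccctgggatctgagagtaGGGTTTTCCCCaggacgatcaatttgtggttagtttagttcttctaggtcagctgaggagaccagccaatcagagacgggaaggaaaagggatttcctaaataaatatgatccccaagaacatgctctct
Cxcl10: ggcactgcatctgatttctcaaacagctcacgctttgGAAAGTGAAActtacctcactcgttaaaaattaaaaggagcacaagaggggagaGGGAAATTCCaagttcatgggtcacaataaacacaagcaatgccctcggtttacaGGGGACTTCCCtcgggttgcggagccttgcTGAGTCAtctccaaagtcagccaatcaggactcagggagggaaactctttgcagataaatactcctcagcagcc

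The Cxcl10 window held an interferon-response core (GAAA and again GAAA after any 2 bases) at -213 to -204, counted from the base before the start as -1, a motif found in 3.44% of 32851 windows of 300 bases and in 1 of the 7 members' windows. Its AP-1 motif (TGANTCA) lay at -74 to -68, and the motif was found in 7.81% of windows and in those of Ccl9, Cxcl10 and Cxcl9, at 32 to 38 after the start in the last. The NF-kB pattern (GGG and CC around any 5 bases) occurred in 50.8% of all windows and in 4 of 7 members' windows, those of Ccl22, Ccl9, Cxcl9 and Cxcl10. The gamma-activated site (TTC and GAA around any 3 bases) was found at -99 to -91 of Ccl17 and in 8.30% of windows, and the IRF-Ets pattern (GGAA and then GAAA after any 2 bases) in 2.72% of windows and in 0 of the 7 members'. Letters that match are a description and not a binding site.

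The summed level of the 10 ligands, as normalised read count per kb of exon, was 9391 ± 763 (n = 4, SD) in splenic and 12335 ± 1435 (n = 4, SD) in thymic immature cDC1 and 135577 ± 11443 (n = 3, SD) in mature cDC1. In cDC2 it was 17239 ± 1217 (n = 3, SD), 33741 ± 2858 (n = 3, SD) and 147027 ± 27977 (n = 3, SD) in the same order. The leading ligand on this scale differed among the immature groups. Cxcl9 led in 3 of 4 splenic cDC1 samples, with a mean share of 41.2% ± 8.19 (SD) of the sum, and Ccl3 in 3 of 3 splenic cDC2 samples, at 42.8% ± 2.97 (SD). Ccl4 and Cxcl16 each led in 2 of 4 thymic immature cDC1 samples, at 30.4% ± 1.77 (SD) and 30.2% ± 2.55 (SD). Ccl17 led in 3 of 3 thymic immature cDC2 samples, at 32.7% ± 1.72 (SD). In mature cells Ccl22 led in 3 of 3 cDC2 samples, at 56.3% ± 0.995 (SD), and in 2 of 3 cDC1 samples, at 46.4% ± 7.08 (SD), with Ccl5 in the other. Ccl22, Ccl5, Ccl17 and Cxcl16 thus made up nearly the whole of the sum in mature cells, where Ccl3, Ccl4, Ccl6, Ccl9, Cxcl9 and Cxcl10 had mean shares of at most 0.422% each.

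**Figure D1:**
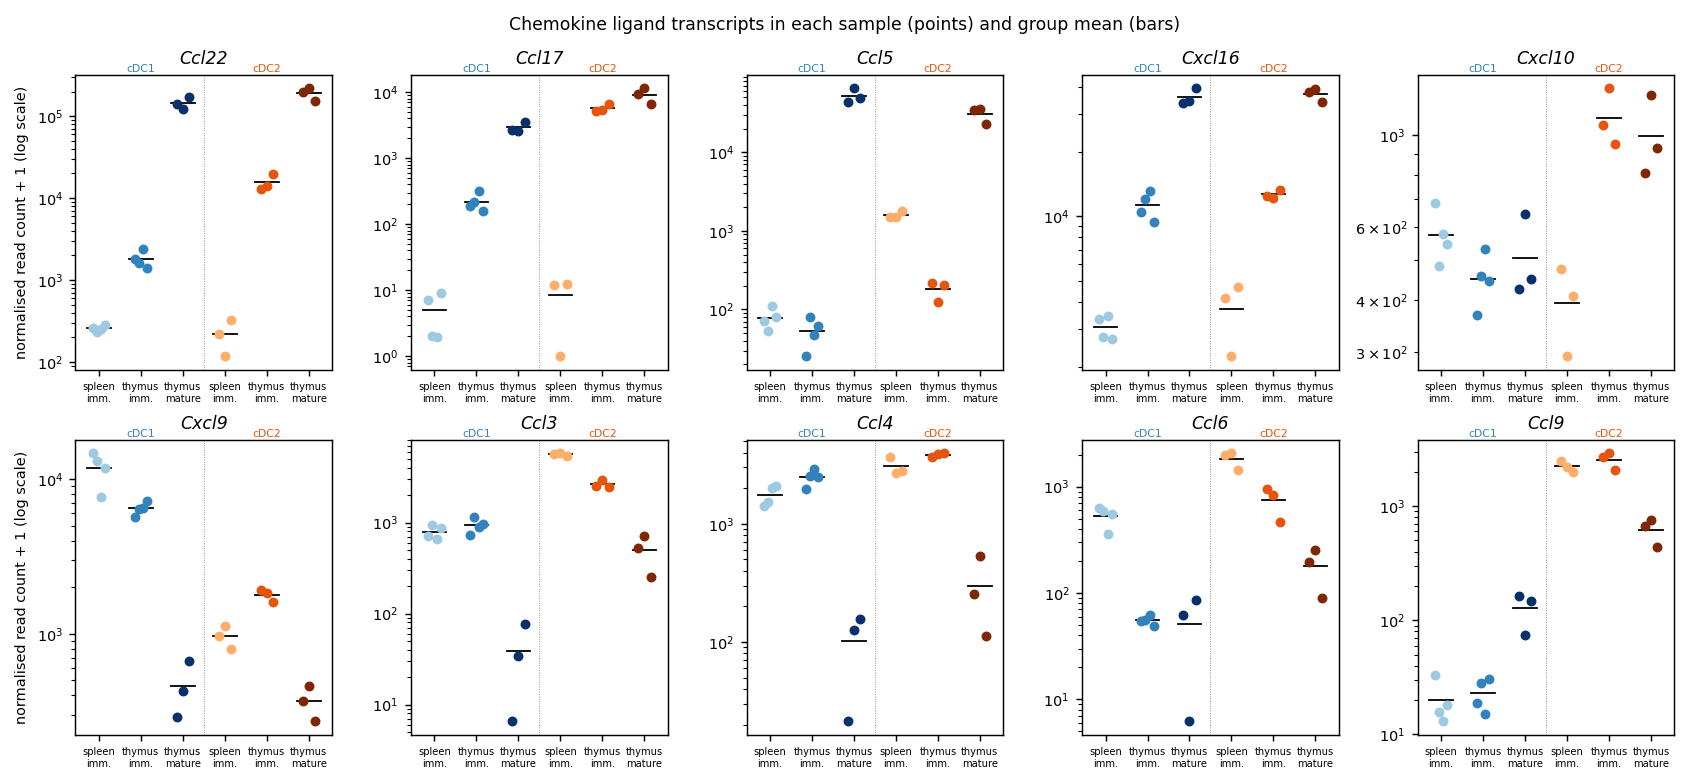
Normalised read count plus 1 on a log axis for each of the 10 ligands, 1 panel per gene, with points for the 20 samples in 6 groups (cDC1 in blue, cDC2 in orange) and a black bar at each group mean. Ccl22 ranged from 123168 to 171998 in mature cDC1 and from 232 to 284 in splenic cDC1, whereas Ccl3 and Ccl4 were lowest in mature cDC1.

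**Figure D2:**
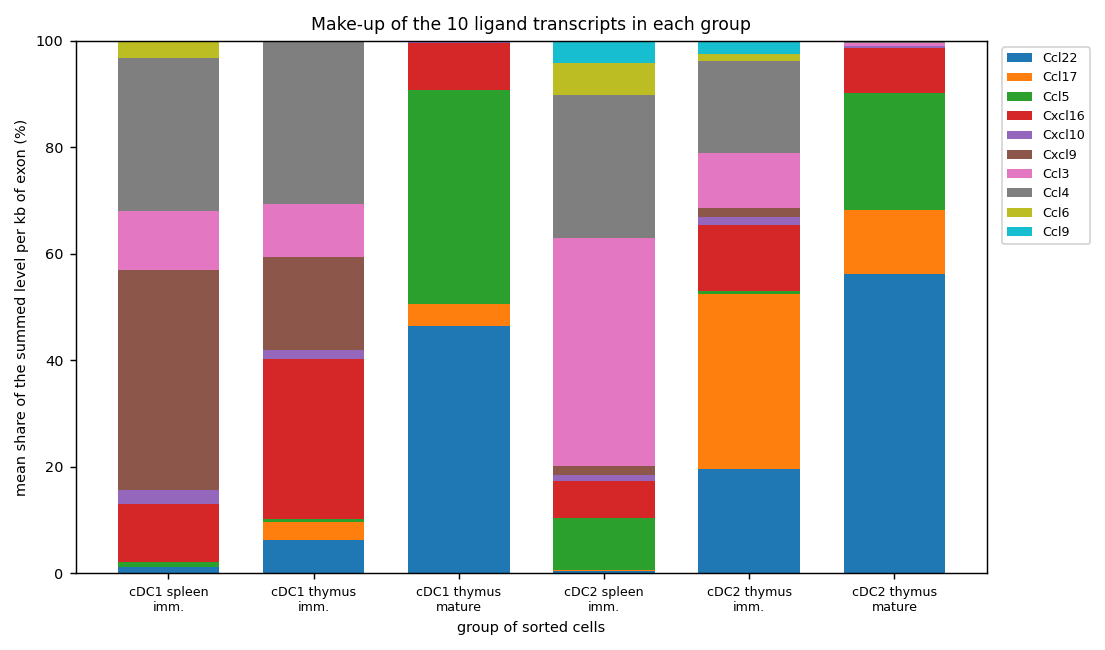
Stacked bars of the mean share (%) of each ligand in the summed level per kb of exon, for the 6 groups of sorted cells. Ccl22 took 1.18% in splenic cDC1 and 46.4% in mature cDC1, and Cxcl9 took 41.2% and 0.111%.

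Ccl22 rose from spleen to thymus and again at maturation, in both subsets. Its normalised read counts in cDC1 were 263, 232, 249 and 284 in the spleen, 1826, 1628, 2372 and 1412 in immature thymic cells and 142734, 123168 and 171998 in mature cells. In cDC2 they were 216, 117 and 323 in the spleen, 13088, 13958 and 19670.0 in immature thymic cells and 199572, 221203 and 155292 in mature cells. Within each subset the 3 states did not overlap, and the mean rose 7.04-fold from spleen to thymus and 80.7-fold at maturation in cDC1, against 71.3-fold and 12.3-fold in cDC2. Differences were tested with limma on the log2 of the value plus 1 in all 20 samples, and a gene was called at a Benjamini-Hochberg adjusted p below 0.1 over 14970 genes and a change exceeding 2-fold. All differences below are log2 fold changes with their standard error (SE), unless given as a fold. The change from splenic to thymic cells was 2.79 (SE 0.234, adjusted p = 3.66e-08 in limma) in cDC1 and 6.24 (SE 0.27, adjusted p = 3.72e-12 in limma) in cDC2. Maturation gave 6.35 (SE 0.252, adjusted p = 3.59e-14 in limma) in cDC1 and 3.63 (SE 0.27, adjusted p = 1.04e-09 in limma) in cDC2. Thymic immature cDC2 exceeded thymic immature cDC1 by 3.11 (SE 0.252, adjusted p = 9.91e-09 in limma). In the spleen and in mature cells the subsets overlapped, with cDC2 minus cDC1 differences of -0.35 (95% interval -0.87 to 0.18) and 0.39 (95% interval -0.17 to 0.96).

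Ccl17, the other CCR4 ligand, was close to 0 in the spleen. Values in splenic cDC1 were 6.18, 0.986, 0.924 and 8.01 and in splenic cDC2 11.0, 0 and 11.4, which rest on 1 to 21 and 0 to 12 reads. Thymic immature cDC1 had 186, 214, 312 and 159 and mature cDC1 2684, 2598 and 3521. In the thymus cDC2 stood higher, at 5196, 5284 and 6586 in immature and 9285, 11579 and 6581 in mature cells. The lowest mature cDC2 sample lay just below the highest immature one, so these groups overlapped, while the immature and mature cDC1 groups did not. From spleen to thymus Ccl17 rose by 5.74 (SE 0.613, adjusted p = 1.03e-06 in limma) in cDC1 and 10.06 (SE 0.707, adjusted p = 3.11e-09 in limma) in cDC2, the latter 8.86 without splenic cDC2 replicate 2 and up to 10.67 without another splenic cDC2 sample, since few splenic reads enter it. Maturation raised it in cDC1, by 3.78 (SE 0.662, adjusted p = 5.28e-05 in limma). The change in cDC2 was 0.66 (SE 0.707, adjusted p = 0.478 in limma) with a 95% interval of -0.82 to 2.13, which did not pass the test. Between subsets, thymic immature cDC2 exceeded cDC1 by 4.74 (SE 0.662, adjusted p = 1.38e-05 in limma). Mature cDC2 lay 3.12-fold above mature cDC1 without overlap, a difference of 1.62 (SE 0.707, adjusted p = 0.108 in limma) that missed the threshold and passed it with edgeR (adjusted p = 0.00256) and DESeq2 (adjusted p = 9.78e-05) on the reads. Splenic cDC2 minus cDC1 was 0.42 (95% interval -0.96 to 1.80). It reached 1.62 with an adjusted p of 0.0191 in limma without splenic cDC2 replicate 2, which had 0 reads, and fell below 0 without replicate 1 or 3.

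Per kb of exon, the ratio of Ccl22 to Ccl17 was 1.68 to 2.17 in thymic immature cDC1 and 0.557 to 0.66 in thymic immature cDC2, so that Ccl17 was the more abundant of the pair in every sample of the latter group. In mature cells the ratio was 10.5 to 11.8 in cDC1 and 4.22 to 5.22 in cDC2. The level of Cx3cl1, the membrane-bound chemokine gene that lies between them, was 41.1 ± 17.3 (n = 4, SD) in immature and 1658 ± 226 (n = 3, SD) in mature thymic cDC1, and 221 ± 7.48 (n = 3, SD) and 2171 ± 325 (n = 3, SD) in thymic cDC2. It rose at maturation by 5.39 (SE 0.35, adjusted p = 5.26e-11 in limma) and 3.28 (SE 0.374, adjusted p = 4.15e-07 in limma), and from spleen to thymus in cDC2 by 3.85 (SE 0.374, adjusted p = 2.81e-07 in limma).

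Ccl5, which T and NK cells also make, had the largest maturation change of the 10 in each subset. Immature thymic cDC1 had values of 24.5, 78.3, 46.8 and 60.6, and mature cDC1 of 43012, 65849.8 and 48409. In thymic cDC2 they were 218, 125 and 206 in immature and 34052, 36000.5 and 23218 in mature cells. The rise was 10.03 (SE 0.311, adjusted p = 9.78e-16 in limma) in cDC1 and 7.42 (SE 0.333, adjusted p = 8.78e-13 in limma) in cDC2, and every mature cDC1 sample lay above every mature cDC2 sample, a difference of -0.76 (SE 0.333, adjusted p = 0.11 in limma) that was not called. Immature cells showed the opposite order of subsets. Splenic cDC2 had 1499, 1522 and 1765 against 70.0, 52.3, 109 and 79.7 in splenic cDC1, higher by 4.39 (SE 0.311, adjusted p = 1.08e-09 in limma), and thymic immature cDC2 exceeded cDC1 by 1.85 (SE 0.311, adjusted p = 1.23e-04 in limma). In cDC2 the thymus was lower than the spleen by a log2 fold change of -3.16 (SE 0.333, adjusted p = 7.73e-07 in limma), and in cDC1 the tissue difference was -0.62 (95% interval -1.23 to -0.022). The summed NK cell markers were 4413 to 10091 in splenic cDC2 against 2895 to 4936 in splenic cDC1, and each of the 7 was above 0 in splenic cDC2. They overlapped with those of thymic cDC2, at 3751 to 5577 in immature and 3861 to 5629 in mature cells. Thymic cDC1 had 2882 to 3238 and 2330 to 2750, with 3 of the 7 at 0 in each state. Only 3 of the 7 passed the filter on low values. Gzma and Ncr1, named after their values were seen, had means of 107 and 13.3 in splenic cDC2 against at most 3.01 and 0.247 in the other groups. The labels name DX5 as excluded for cDC1 and not for cDC2. The part of NK and T cell transcripts in the Ccl5 values was not tested.

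Cxcl16, the membrane-anchored ligand of CXCR6, followed tissue and maturation and not the subset. In cDC1 it was 3335, 2734, 3429 and 2679.8 in the spleen, 10460.5, 12064, 13054 and 9403 in immature thymic and 33506, 34209.9 and 39494 in mature thymic cells. In cDC2 it was 4147, 2237 and 4699 in the spleen, 12458, 12194 and 13234 in immature thymic cells and 38004, 39218 and 34158 in mature cells. Each step separated all samples of a subset, while cDC1 and cDC2 overlapped at every step. The thymus exceeded the spleen by 1.88 (SE 0.18, adjusted p = 2.49e-07 in limma) in cDC1 and 1.84 (SE 0.208, adjusted p = 1.87e-06 in limma) in cDC2, and mature exceeded immature cells by 1.68 (SE 0.195, adjusted p = 2.82e-07 in limma) and 1.55 (SE 0.208, adjusted p = 3.43e-06 in limma). The cDC2 minus cDC1 differences had 95% intervals of -0.19 to 0.62 in the spleen, -0.23 to 0.58 in immature and -0.38 to 0.49 in mature thymic cells. Exons of Zmynd15 overlap those of Cxcl16 on the other strand over 552 bases, 18.3% of the exon length of Cxcl16, and the strand setting of the read counting is not given in the sources used here. Zmynd15 had 47.4 ± 7.72 (n = 4, SD), 2525 ± 672 (n = 4, SD) and 33554 ± 4792 (n = 3, SD) in splenic, immature thymic and mature cDC1 and 155 ± 79.3 (n = 3, SD), 1668 ± 257 (n = 3, SD) and 30676 ± 5901 (n = 3, SD) in cDC2. It moved more than Cxcl16, by 5.69 (SE 0.244, adjusted p = 3.79e-12 in limma) from spleen to thymus and 3.76 (SE 0.263, adjusted p = 1.71e-10 in limma) at maturation in cDC1, and reads shared by the pair were not separated. The transcripts of the proteases that shed CXCL16, Adam10 and Adam17, changed by -0.39 to 0.80 on the log2 scale between any 2 of the groups compared, always less than 2-fold.

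Ccl3 and Ccl4, inflammatory chemokines encoded next to each other, were high in immature cells and low in mature ones. Ccl3 in cDC1 was 706, 941, 667 and 878 in the spleen, 728, 1144, 886 and 966 in immature thymic cells and 5.53, 32.9 and 76.0 in mature cells. In cDC2 the values were 5749, 5788 and 5364 in the spleen, 2554, 2910.1 and 2450.2 in immature thymic cells and 519.7, 712 and 249.6 in mature cells. Mature samples lay below all immature thymic samples of their subset, and maturation gave log2 fold changes of -5.16 (SE 0.505, adjusted p = 2.45e-08 in limma) in cDC1, where the mature values rest on 3 to 95 reads, and -2.54 (SE 0.54, adjusted p = 5.91e-04 in limma) in cDC2. Without mature cDC1 replicate 1 or 3 the cDC1 value was -4.17 or -5.95. Ccl3 was higher in cDC2 than in cDC1 in all 3 states, by 2.83 (SE 0.505, adjusted p = 2.15e-04 in limma) in the spleen, 1.52 (SE 0.505, adjusted p = 0.0352 in limma) in immature thymic cells and 4.14 (SE 0.54, adjusted p = 1.15e-05 in limma) in mature cells, the last being 3.15 and 4.93 without mature cDC1 replicate 1 and 3. The immature thymic difference missed the threshold in lane 8 alone (1.43, adjusted p = 0.243) and without thymic immature cDC2 replicate 2 (1.44, adjusted p = 0.108). Between tissues, thymic cDC2 had lower normalised read counts of Ccl3 than splenic cDC2 with no overlap of samples, a difference of -1.10 (SE 0.54, adjusted p = 0.17 in limma) that was not called in limma and was with edgeR (adjusted p = 0.0403) and DESeq2 (adjusted p = 0.0177). The cDC1 tissue difference was 0.22 (95% interval -0.76 to 1.19).

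For Ccl4 the values were 1417, 1541, 2024 and 2093 in splenic, 1988, 2550.2, 2899 and 2498 in immature thymic and 20.3, 125 and 157 in mature cDC1. Splenic cDC2 had 3715, 2707 and 2785, immature thymic cDC2 3683, 3885 and 3959.6 and mature cDC2 253, 532 and 111. The fall at maturation was of like size to that of Ccl3 in cDC1, at -5.04 (SE 0.499, adjusted p = 2.93e-08 in limma) (-4.13 without mature replicate 1), and was -3.95 (SE 0.533, adjusted p = 3.75e-06 in limma) in cDC2. No difference between immature groups was called for this gene. The tissue differences were 0.50 (95% interval -0.47 to 1.46) in cDC1 and 0.34 (95% interval -0.77 to 1.45) in cDC2, and those between subsets 0.80 (95% interval -0.24 to 1.84) in the spleen and 0.64 (95% interval -0.40 to 1.68) in the immature thymus. Mature cDC2 and cDC1 overlapped and differed by 1.73 (SE 0.533, adjusted p = 0.0232 in limma), a call that was lost without mature cDC1 replicate 1 (0.82, limma adjusted p = 0.166), without mature cDC2 replicate 2 (1.17, limma adjusted p = 0.16) and when only these groups were fitted (limma adjusted p = 0.254). Per kb, the ratio of Ccl4 to Ccl3 was 1.90 to 3.52 in splenic and 2.59 to 3.80 in immature thymic cDC1 but 0.543 to 0.75 in splenic cDC2, where Ccl3 was the more abundant, and 1.55 to 1.88 in immature thymic cDC2.

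Ccl9 and Ccl6 are neighbouring genes for ligands of CCR1, and Ccl9 had the largest subset difference of the 10 in immature cells of either tissue. Ccl9 in splenic cDC1 was 31.9, 14.8, 12.0 and 17.3, from 13 to 46 reads, and in splenic cDC2 2493, 2215 and 1981. Immature thymic cDC1 had 17.7, 27.5, 14.0 and 29.3, from 9 to 33 reads, and cDC2 2672, 2902 and 2087. The subset difference was 6.89 (SE 0.343, adjusted p = 5.94e-12 in limma) in the spleen and 6.83 (SE 0.343, adjusted p = 9.17e-12 in limma) in the immature thymus, and the tissues differed by 0.24 (95% interval -0.42 to 0.91) in cDC1 and 0.19 (95% interval -0.58 to 0.95) in cDC2. At maturation Ccl9 moved in opposite directions. It rose to 162, 72.8 and 146 in cDC1, by 2.45 (SE 0.343, adjusted p = 3.65e-06 in limma), and fell to 669, 750.3 and 433 in cDC2, a log2 fold change of -2.07 (SE 0.367, adjusted p = 9.39e-05 in limma), and neither subset's mature samples overlapped its immature ones. Mature cDC2 still exceeded mature cDC1, by 2.31 (SE 0.367, adjusted p = 1.04e-04 in limma).

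Ccl6 was 634, 586, 356 and 552 in splenic, 54.1, 54.1, 60.9 and 47.5 in immature thymic and 60.8, 5.20 and 85.6 in mature cDC1. Splenic cDC2 had 1981, 2059 and 1436, immature thymic cDC2 950.0, 840.3 and 469 and mature cDC2 196, 252 and 89.5. The spleen was the site of the highest values in both subsets. From spleen to thymus the log2 fold change was -3.24 (SE 0.548, adjusted p = 2.54e-04 in limma) in cDC1, and in cDC2, whose samples did not overlap either, it was -1.32 (SE 0.633, adjusted p = 0.158 in limma), not called in limma and called with edgeR (adjusted p = 0.0464) and DESeq2 (adjusted p = 0.02). Maturation lowered Ccl6 in cDC2, with -2.13 (SE 0.633, adjusted p = 0.00885 in limma). In cDC1 the maturation difference was -0.77 (95% interval -2.01 to 0.46), and it turned to 0.41 without mature replicate 2, which had 3 reads, and was called without mature replicate 3 (-1.49, limma adjusted p = 0.0385). cDC2 exceeded cDC1 by 1.79 (SE 0.592, adjusted p = 0.0309 in limma) in the spleen, 3.72 (SE 0.592, adjusted p = 6.63e-05 in limma) in immature and 2.36 (SE 0.633, adjusted p = 0.00988 in limma) in mature thymic cells. The splenic difference was 1.69 with a limma adjusted p of 0.473 in lane 8 alone, and the mature difference was 1.18 and 3.08 without mature cDC1 replicate 2 and 3, with a limma adjusted p of 0.189 when only those groups were fitted.

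Macrophages and monocytes also make Ccl3, Ccl4, Ccl6 and Ccl9, and the F4/80 gate, which would remove macrophages, is given by the labels for cDC1 and by the study's general gating for both subsets. Exclusion of Ly6C and Ly6G is named for cDC1 and not for cDC2. Over 11 macrophage and monocyte genes, the summed normalised read count was 18601 to 30041 in splenic and 22482 to 29928 in immature thymic cDC2 against 4321 to 6914 and 4321 to 7589.8 in the cDC1 groups, and 6469 to 24165 in mature cDC2 against 6062 to 9008 in mature cDC1, with each of the 11 above 0 in every group. At maturation in cDC2, where Ccl3, Ccl4, Ccl6 and Ccl9 fell, 4 of the 11 were lower and 1 was higher, with a median of -0.62. Of all genes, 17% were lower and 18.6% higher. In splenic and immature thymic cells 7 and 8 of the 11 were higher in cDC2 than in cDC1, against 9.93% and 11% of all genes. In mature cells 9 of the 11 were higher in cDC2 and 0 were lower, against 14.6% and 4.36% of all genes, with a median of 5.04. At maturation in cDC1, where Ccl3 and Ccl4 fell and Ccl9 rose, 6 of the 11 were lower and 2 were higher. The shares of all genes there were 24.5% and 21.3%. The part of such cells in the 4 ligands was not tested.

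Cxcl9, an interferon-gamma-inducible ligand of CXCR3, was the ligand called higher in cDC1 than in cDC2 among immature cells. Its values were 14674, 13126, 7607 and 11714 in splenic, 5681, 6441, 6541 and 7159 in immature thymic and 288, 426 and 669 in mature cDC1. In cDC2 they were 964, 1118 and 800.1 in the spleen, 1909.7, 1846 and 1599.7 in immature thymic cells and 365, 460.1 and 271 in mature cells. The subset difference was -3.59 (SE 0.246, adjusted p = 6.27e-10 in limma) in the spleen and -1.85 (SE 0.246, adjusted p = 7.33e-06 in limma) in immature thymic cells, while mature cells overlapped and differed by -0.28 (95% interval -0.83 to 0.27). Maturation lowered Cxcl9 in both subsets, with log2 fold changes of -3.88 (SE 0.246, adjusted p = 3.55e-11 in limma) and -2.31 (SE 0.263, adjusted p = 3.94e-07 in limma). Between tissues the directions were opposite. Thymic cDC1 lay below splenic cDC1 in every sample, by -0.83 (SE 0.227, adjusted p = 0.0171 in limma), and thymic cDC2 above splenic cDC2, by 0.90 (SE 0.263, adjusted p = 0.018 in limma), both changes under 2-fold. Each was called without 1 sample, at -1.03 (limma adjusted p = 0.00286) without splenic cDC1 replicate 3 and at 1.02 (limma adjusted p = 0.0183) without splenic cDC2 replicate 2. Within lane 8 the differences were -0.49 and 1.10, and within lane 5 -1.29 and 0.88.

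Cxcl10, the neighbouring CXCR3 ligand, varied least of the 10. It was 687, 482, 576 and 545 in splenic, 367, 456, 531 and 445 in immature thymic and 424, 643 and 449 in mature cDC1. Splenic cDC2 had 475, 292 and 409, immature thymic cDC2 1056, 1299 and 949 and mature cDC2 809.9, 1249 and 931. Thymic cDC2, immature and mature, stood above the 4 other groups, of which the cDC1 groups overlapped each other. Immature thymic cDC2 exceeded splenic cDC2 by 1.50 (SE 0.224, adjusted p = 5.17e-05 in limma) and immature thymic cDC1 by 1.29 (SE 0.209, adjusted p = 8.18e-05 in limma). In mature cells the excess of cDC2 was 0.98 (SE 0.224, adjusted p = 0.00311 in limma), just under 2-fold and over it without mature cDC1 replicate 2 (1.17), and in the spleen cDC2 minus cDC1 was -0.56 (SE 0.209, adjusted p = 0.0565 in limma), also under 2-fold. The maturation differences were 0.16 (95% interval -0.28 to 0.59) in cDC1 and -0.16 (95% interval -0.62 to 0.31) in cDC2, and both intervals lie within 2-fold. Art3 overlaps the exon of Cxcl10 on the other strand by 133 bases and had means of at most 11.8. Per kb, the ratio of Cxcl9 to Cxcl10 was 9.86 to 20.3 in splenic and 9.21 to 12.0 in immature thymic cDC1, 1.46 to 2.86 and 1.06 to 1.35 in the corresponding cDC2, and 0.495 to 1.11 and 0.217 to 0.337 in mature cDC1 and cDC2.

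Maturation here means the comparison of mature with immature thymic cells, which were sorted apart on CCR7 and ESAM and not followed over time. In cDC1, Ccl17, Ccl22, Ccl5, Ccl9 and Cxcl16 rose and Ccl3, Ccl4 and Cxcl9 fell. In cDC2, Ccl22, Ccl5 and Cxcl16 rose and Ccl3, Ccl4, Ccl6, Ccl9 and Cxcl9 fell. Of the 10 members 5 were higher and 3 lower in mature cDC1, against 21.3% and 24.5% of all 14970 tested genes, and 3 were higher and 5 lower in mature cDC2, against 18.6% and 17% of all genes. The median log2 fold change of the members was 0.92 in cDC1 and -1.11 in cDC2, where that of all genes was -0.043 and 0.037. In lane 8 alone the members called numbered 8 and 8 again. The T cell and thymocyte genes, 10 of 10 of which rose in each subset, moved with the ligands that rose, and their part was not tested.

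**Figure D3:**
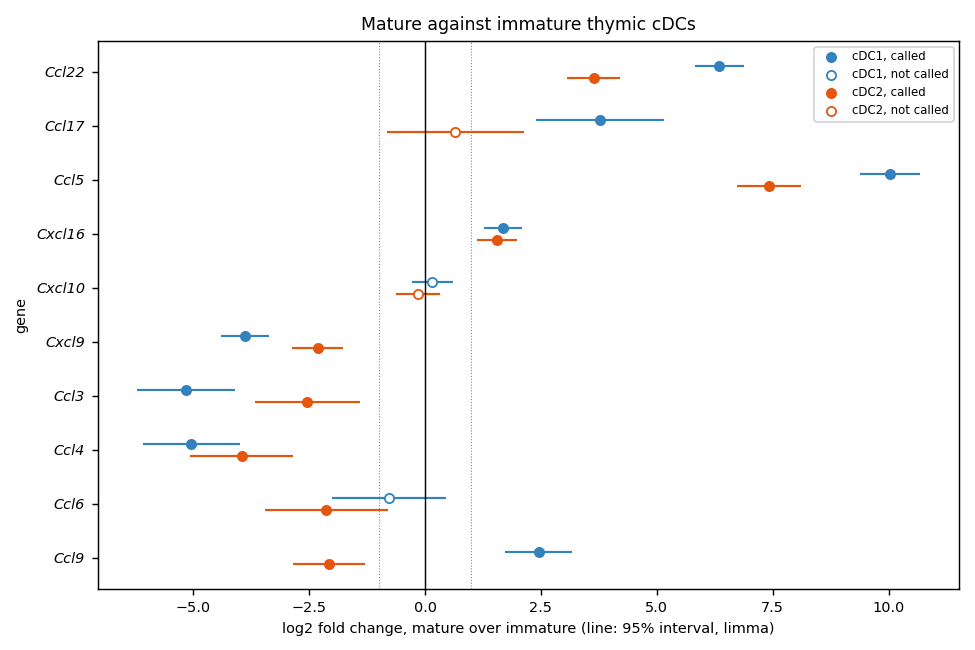
Log2 fold change of each ligand in mature over immature thymic cells, on the x axis, with its 95% interval from limma, for cDC1 (blue) and cDC2 (orange). Filled points passed the test, open points did not, and dotted lines mark a 2-fold change; Ccl9 is the member with called changes on opposite sides of 0, at 2.45 and -2.07.

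The size of the maturation effect differed between the subsets for 6 members, 4 of them with a more negative effect in cDC2 (5.25% of all genes) and 2 with a more positive one (8.34%). The cDC2 effect minus the cDC1 effect was -4.52 (SE 0.503, adjusted p = 4.84e-06 in limma) for Ccl9, -3.12 (SE 0.968, adjusted p = 0.0379 in limma) for Ccl17, -2.71 (SE 0.369, adjusted p = 4.94e-05 in limma) for Ccl22 and -2.61 (SE 0.456, adjusted p = 6.47e-04 in limma) for Ccl5. In immature thymic cells these 4 were called higher in cDC2 than in cDC1. So were Ccl3, with a positive difference of effects, and Ccl6 and Cxcl10, with no difference called. The cDC2 effect minus the cDC1 effect was 2.62 (SE 0.739, adjusted p = 0.0224 in limma) for Ccl3 and 1.57 (SE 0.359, adjusted p = 0.00595 in limma) for Cxcl9, which fell further in cDC1. The Ccl3 difference was 1.63 and 3.41 without mature cDC1 replicate 1 and 3, and had a limma adjusted p of 0.122 in lane 8 alone, and that of Ccl17 one of 0.239 with a pseudocount of 0.1. For Cxcl16, Cxcl10 and Ccl4 the differences were -0.12 (95% interval -0.72 to 0.47), -0.31 (-0.95 to 0.33) and 1.08 (-0.44 to 2.61), and for Ccl6 -1.35 (-3.16 to 0.46). The Ccl6 difference passed with edgeR (-2.02, adjusted p = 0.0487) and DESeq2 (-2.02, adjusted p = 0.0137), and in limma without mature cDC1 replicate 2 (-2.54, adjusted p = 0.00202).

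The tissue was compared in immature cells. In cDC1, Ccl17, Ccl22 and Cxcl16 were higher in the thymus and Ccl6 was lower, 3 and 1 of the 10 members against 4.26% and 4.52% of all genes. In cDC2, Ccl17, Ccl22, Cxcl10 and Cxcl16 were higher and Ccl5 was lower, 4 and 1 against 8.3% and 5.87%. The members' median log2 fold change was 0.23 in cDC1 and 0.62 in cDC2, beside 0.0043 and 0.021 for all genes. Within lane 5 thymus and spleen differed in cDC1, in mean log2 value, by 5.63 for Ccl17, 2.88 for Ccl22 and 1.79 for Cxcl16, and within lane 8 they were 5.73, 2.72 and 1.91. In cDC2 the same genes gave 10.55, 6.36 and 2.03 in lane 5 and 8.89, 5.68 and 1.43 in lane 8, each from 1 to 3 samples per group. Of the 9 thymic epithelium and stroma genes 6 were tested, and 4 were higher in thymic cDC1 and 6 in thymic cDC2, and of the T cell and thymocyte genes 9 and 7 of 10 were. Plasmacytoid DC genes were higher in 2 and 5 of the 5 tested, with sums over 6 genes of 3363 to 3865 in splenic and 5189 to 5988 in thymic immature cDC1 and 3280.2 to 3963 and 10563 to 12156 in cDC2, and macrophage and monocyte genes in 1 and 4 of 11. As for 10 genes known to rise in maturing cDCs, 3 were higher and 0 lower in thymic than in splenic immature cDC1. In cDC2, 4 were higher and 1 was lower, beside the same shares of all genes as above. The part of other thymic cells, or of maturing cells within the immature gate, in the rise of Ccl17, Ccl22, Cxcl10 and Cxcl16 was not tested.

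**Figure D4:**
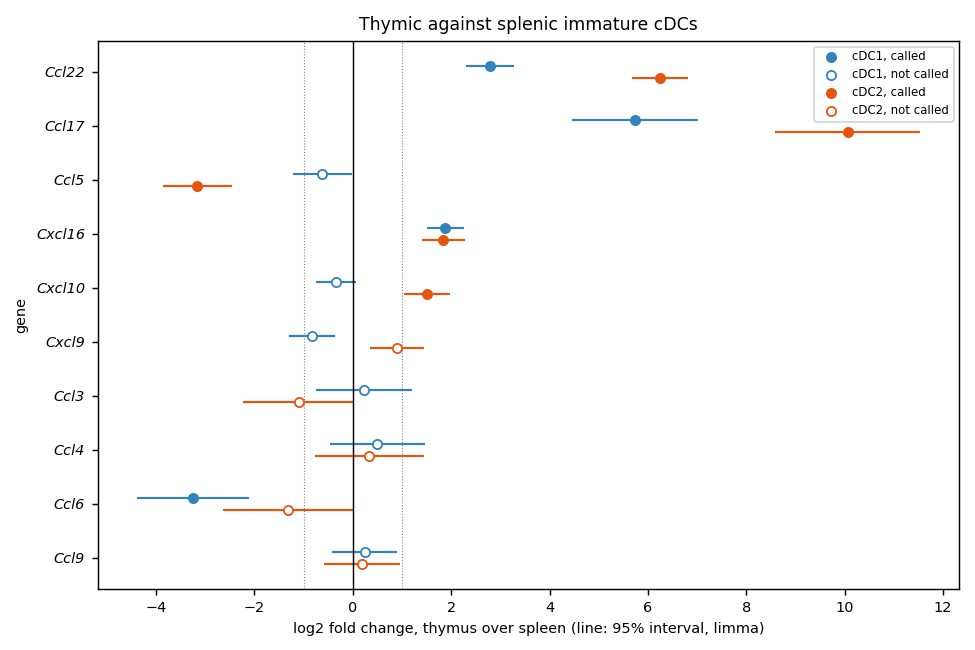
Log2 fold change of each ligand in thymic over splenic immature cells, on the x axis, with its 95% interval from limma, for cDC1 (blue) and cDC2 (orange). Filled points passed the test and open points did not; Ccl17 has the largest value in each subset, 5.74 in cDC1 and 10.06 in cDC2.

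Of the 10 members, 4 had a more positive tissue effect in cDC2 (3.27% of all genes) and 1 a more negative one (1.71%). The cDC2 effect minus the cDC1 effect was 4.32 (SE 0.936, adjusted p = 0.00732 in limma) for Ccl17, 3.45 (SE 0.357, adjusted p = 3.75e-06 in limma) for Ccl22, 1.85 (SE 0.296, adjusted p = 4.90e-04 in limma) for Cxcl10 and 1.73 (SE 0.347, adjusted p = 0.00382 in limma) for Cxcl9, and it was -2.53 (SE 0.44, adjusted p = 0.00109 in limma) for Ccl5. In lane 8 alone, with fewer samples, Ccl17 (3.17, adjusted p = 0.105) and Cxcl9 (1.59, adjusted p = 0.248) missed the threshold in limma, and Ccl17 also missed it with a pseudocount of 0.1 (adjusted p = 0.101). The Ccl17 difference was 3.12 without splenic cDC2 replicate 2 and up to 4.94 without another splenic cDC2 sample. For Cxcl16, which rose in both subsets, the 95% interval of the difference was -0.61 to 0.53, for Ccl9 it was -1.07 to 0.96 and for Ccl4 -1.63 to 1.31. Ccl3 and Ccl6 had wide intervals, -2.81 to 0.17 and 0.18 to 3.67. Ccl6 passed with edgeR (2.02, adjusted p = 0.0611) and DESeq2 (2.02, adjusted p = 0.0155), and Ccl3 with DESeq2 (-1.33, adjusted p = 0.0927). When only the 4 immature groups were fitted in limma both passed, with adjusted p = 0.00238 for Ccl3 and 0.0047 for Ccl6. In the limma fit of all groups Ccl3 passed without mature cDC1 replicate 1 (adjusted p = 0.0756) and Ccl6 without replicate 2 (adjusted p = 0.013).

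The subset was compared within each tissue and state. In the spleen, Ccl5, Ccl3, Ccl6 and Ccl9 were higher and Cxcl9 lower in cDC2 than in cDC1, 4 and 1 of the 10 members against 9.93% and 6.7% of all genes. In immature thymic cells, Ccl17, Ccl22, Ccl5, Ccl3, Ccl6, Ccl9 and Cxcl10 were higher and Cxcl9 lower, 7 and 1 against 11% and 5.42%. In mature cells, Ccl3, Ccl4, Ccl6 and Ccl9 were higher, 4 members against 14.6% of all genes, and 0 were lower, against 4.36%. Beside that 0, 1 member, Ccl5, had a lower value in mature cDC2 at an unadjusted p under 0.05, and edgeR and DESeq2 called 0 lower. The medians of the members were 0.61, 1.68 and 1.3 in the 3 comparisons and those of all genes 0.019, 0.012 and 0.14. Within lane 8 the splenic differences were 7.01 for Ccl9, 4.23 for Ccl5 and -3.56 for Cxcl9, and within lane 5 they were 6.69, 4.62 and -3.74. The comparisons of maturation, tissue and subset share samples, so their values for a gene are not independent of each other.

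**Figure D5:**
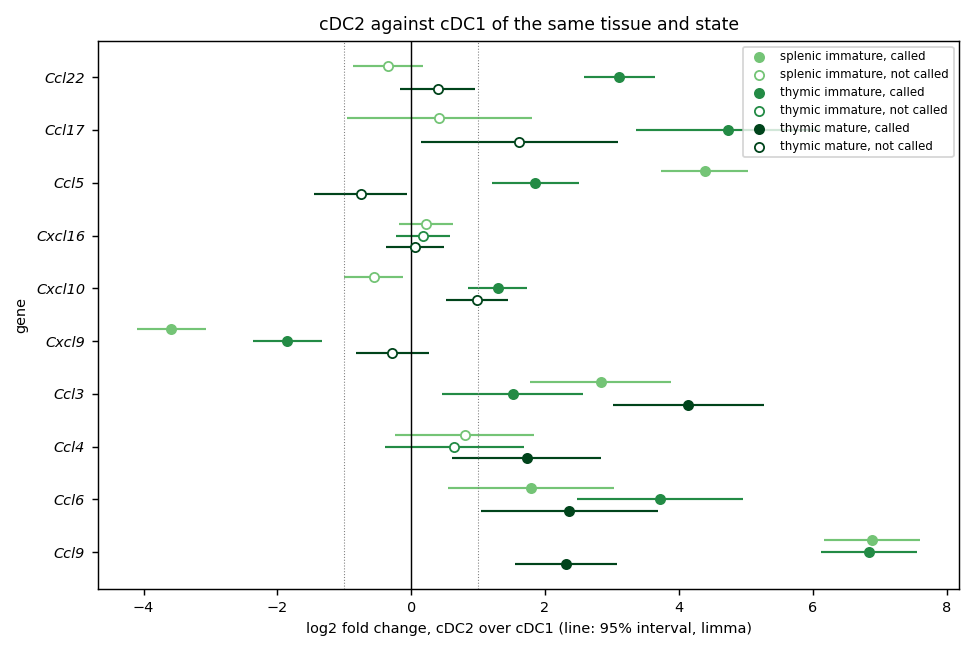
Log2 fold change of each ligand in cDC2 over cDC1, on the x axis, with its 95% interval from limma, in splenic immature (light green), thymic immature (green) and thymic mature cells (dark green). Filled points passed the test and open points did not; Ccl9 lies at 6.89, 6.83 and 2.31, and Cxcl9 at -3.59, -1.85 and -0.28.

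Over the 20 samples, the log2 values of Ccl22 had a Pearson r of 0.969 with those of Cxcl16 and 0.933 with those of Ccl17, and Ccl3 and Ccl4 had one of 0.905. Ccl5 and Cxcl9 ran in opposite order, with r = -0.915. These values describe 6 groups that stand apart and carry no test. Among 10210 other genes with a mean value of at least 100, those most like Ccl22 were Cacnb3 (r = 0.984), Mmp25 (r = 0.984) and Nipal1 (r = 0.982). Those most like Ccl5 were Arl5c (r = 0.985), Gm2382 (r = 0.983) and Relb (r = 0.983), Relb being the NF-kB subunit known from dendritic cell maturation. For Cxcl16 they were Zmynd15 (r = 0.989), Mmp25 (r = 0.988) and Ube2l6 (r = 0.987), and for Ccl17 Slc30a4 (r = 0.965), Golm1 (r = 0.964) and Slfn4 (r = 0.961). Cxcl9 was most like Ppt1 (r = 0.976), Acox3 (r = 0.973) and Slco3a1 (r = 0.971), Ccl3 most like Ms4a6b (r = 0.974), Man1c1 (r = 0.970) and Xpc (r = 0.965), and Ccl4 most like Lat2 (r = 0.984), Bard1 (r = 0.978) and Ccnf (r = 0.977). Ccl9 had Ptpro (r = 0.969), L1cam (r = 0.954) and Myo1e (r = 0.954), and Ccl6 had Hrh1 (r = 0.961), Itgb3 (r = 0.956) and Tlr5 (r = 0.949). The pattern of Cxcl10 was matched least, with Dbr1 (r = 0.830), Ptprf (r = 0.815) and Galk2 (r = 0.802).

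Among the 30 other chemokine ligand genes listed, 15 passed the filter on low values and were tested. At maturation 3 of the 15 rose and 3 fell in cDC1, against 21.3% and 24.5% of all genes. In cDC2 also 3 rose and 3 fell, against 18.6% and 17% of all genes. Cxcl1, which recruits neutrophils, rose from 2.95 ± 2.37 (n = 4, SD) to 1027 ± 88.5 (n = 3, SD) in cDC1 and from 23.1 ± 10.0 (n = 3, SD) to 1579 ± 303 (n = 3, SD) in cDC2. The CCR2 ligand Ccl2 fell from 166 ± 26.6 (n = 4, SD) to 18.3 ± 22.3 (n = 3, SD) in cDC1, by 3.80 (SE 0.587, adjusted p = 1.23e-05 in limma) on the log2 scale. Between tissues 1 of 15 was higher in thymic cDC1, against 4.26% of all genes. In thymic cDC2 10 were higher, against 8.3% of all genes, with Cxcl2 at 1513 ± 219 (n = 3, SD) against 445 ± 266 (n = 3, SD) in splenic cDC2. Of the same 15, 7 were higher in immature thymic cDC2 and 8 in mature cDC2 than in the corresponding cDC1, against 11% and 14.6% of all genes. In splenic cDC2 1 was higher and 1 lower, against 9.93% and 6.7%. Ccl19, the CCR7 ligand, had at most 1 read in a sample, and Ccl21a had 0 in all 20. Stretches shared with other genes were looked for only in the 10 ligands. How far shared sequence lowers the counts of Ccl19 and Ccl21a was therefore not tested.

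Among receptors of the ligands, Ccr1 and Cxcr3 fell at maturation in each subset, Cxcr3, the receptor of CXCL9 and CXCL10, from 603 ± 131 (n = 4, SD) to 0.267 ± 0.462 (n = 3, SD) in cDC1. Ccr4, the receptor of CCL17 and CCL22, had 0 reads in the spleen and means of 33.7 and 25.1 in mature cDC1 and cDC2, and it passed the test as higher at maturation in cDC1, by 2.77 (SE 0.834, adjusted p = 0.00741 in limma). In that comparison 10 of 10 T cell and thymocyte genes also rose, and their part in the Ccr4 values was not tested. Cxcr6 had at most 7.21 in a group. Between subsets Cxcr3 was higher in immature cDC1, at 565 ± 166 (n = 4, SD) against 17.5 ± 2.91 (n = 3, SD) in the spleen, and Ccr1, the receptor of CCL6 and CCL9, in thymic cDC2, at 803 ± 98.3 (n = 3, SD) against 12.8 ± 7.02 (n = 4, SD) in cDC1.

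The values of Cxcl9 and Cxcl10 were set beside 10 other interferon-stimulated genes. Of these, 7 rose and 1 fell at maturation in cDC1, against 21.3% and 24.5% of all genes. In cDC2, 3 rose and 4 fell, against 18.6% and 17%. In the thymus 7 were higher in each subset, against 4.26% of all genes in cDC1 and 8.3% in cDC2. In cDC1 1 was lower there, against 4.52%. Irf1, an interferon-induced transcription factor, was 1392 ± 199 (n = 4, SD) in immature and 45821 ± 6367 (n = 3, SD) in mature cDC1, and Gbp2 78.6 ± 36.3 (n = 4, SD) and 11022 ± 671 (n = 3, SD), while Cxcl9 fell in the same cells. In cDC2 against cDC1, 6 of the 10 were higher in the spleen, where 9.93% of all genes were higher and Cxcl9 was lower. Of 10 genes known to rise in maturing cDCs, 10 were higher in mature cDC1 and 10 in mature cDC2, against 21.3% and 18.6% of all genes. Their medians were 5.28 and 4.58. The list includes Ccr7, the receptor used to sort the mature cells, and was chosen with earlier results known, so its count is no independent test. Ccr7 went from 714 ± 179 (n = 4, SD) to 110227 ± 18494 (n = 3, SD) in cDC1 and from 3419 ± 682 (n = 3, SD) to 99928 ± 13553 (n = 3, SD) in cDC2. The median difference of these 10 genes between mature cDC2 and mature cDC1 was -0.23, and that of the 10 ligands 1.3.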

How the data were processed

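RNAseq of sorted mouse cDCs was deposited as 21 libraries of 37734 genes each. Per the labels and the study's methods, adapters were removed with Cutadapt, reads were aligned to mm10 with STAR 2.6 and counted per Ensembl gene with HTSeq-count from a stranded mRNA kit. The strand setting and the Ensembl release are not given in the sources used here. The authors divided the counts by size factors of DESeq2 1.24.0, so the deposited unit is a signal, the normalised read count. In each library 100% of the values were whole multiples of what 1 read is worth (within 0.01 of a read), which gave back 14266867 to 40119669 reads and so the depth behind each value. Intervals and read counts cover only the spread between these samples and counting, respectively.

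From these values, splenic cDC1 replicates 4 and 5, which carry the same name number, index and lane, were averaged, leaving 20 samples. Groups were taken from the labels. The 14970 genes that reached a value of 10 in 3 or more samples were fitted with limma 3.58.1 in R 4.3.3 on log2(value + 1), a scale that understates the change of low genes. The 6 groups entered 1 fit, with empirical Bayes moderation and a mean-variance trend, and p-values were adjusted by the Benjamini-Hochberg method over all genes. A gene was called where the adjusted p was under 0.1 and the change exceeded 2-fold. Differences of effects between cDC2 and cDC1 were contrasts of the same fit. The steps were tested on simulated data. Exon lengths and positions came from GENCODE M21, which held 37607 of the 37734 identifiers, and promoters from RefSeq.

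Alternatives were edgeR 4.0.16 and DESeq2 1.42.0 on the recovered reads, other pseudocounts, filters, thresholds, scalings, treatments of repeated libraries and lanes, fits of the compared groups alone and leaving out each sample in turn. The 10 ligands and all gene lists were chosen with earlier results of these data known. Named genes are the 10 ligands, at most 4 genes of each list with the highest mean, the 3 genes most like each ligand by Pearson r and defining markers of other cells. Zmynd15 and Art3 were named for their overlap, and Gzma, Ncr1, Cxcr6, Ccl19 and Ccl21a after their values were seen. The receptor list is given in part.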

Additional observations from a re-analysis of the deposited data

Results flagged for a closer look

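The effect of a contrast differed between cDC2 and cDC1 in 11 of the 20 differences tested, 2 for each ligand, by the interaction contrast of limma. For maturation, the log2 effect in cDC2 minus that in cDC1 was -4.52 for Ccl9, -3.12 for Ccl17, -2.71 for Ccl22, -2.61 for Ccl5, 2.62 for Ccl3 and 1.57 for Cxcl9, 6 ligands where 5.25% of all genes had a lower and 8.34% a higher effect in cDC2. For tissue, it was 4.32 for Ccl17, 3.45 for Ccl22, -2.53 for Ccl5, 1.85 for Cxcl10 and 1.73 for Cxcl9, 5 ligands where the shares of all genes were 1.71% and 3.27%. Ccl17, Ccl22, Ccl5 and Cxcl9 differed under both contrasts, which share the thymic immature samples, so that a value of these samples enters both with opposite sign. No sample stood far enough from the others of its group to be singled out in the 20 groups of 4 samples tested (10 ligands in 2 groups), where chance would single out about 1 in 20. The groups of 3 samples, among them mature cDC1 and splenic cDC2, were not tested in this way.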

How the results depend on the processing

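Of 53 member changes called, 1802 of 1828 values under the alternatives kept direction and side of the threshold, 26 missed the threshold and 0 reversed. Of 37 changes not called, 49 of 1272 values passed and 21 reversed. Each comparison had 34 alternatives (36 between immature subsets), 20 of which left out 1 sample each, so these values are not independent of each other. Alternatives that only moved the fold threshold kept the main fit and could not reverse a direction. Between immature subsets, the fit of the compared groups alone also entered as the fit without a replicate block. With a change of more than 4-fold required, 3 ligands (999 of 14970 genes) were called for tissue in cDC2, 4 (1420 genes) between thymic immature cDC2 and cDC1, and 3 (428 genes) for the difference of tissue effects, and in lane 8 alone, with fewer samples, 3 (225 genes) for that difference. The splenic cDC2 minus cDC1 difference reversed for Ccl17 with a pseudocount of 0.1 (-0.23) and for Ccl22 in lane 8 alone (0.28). The difference of tissue effects reversed for Ccl9 with a pseudocount of 8 (0.011) and for Ccl4 in lane 8 alone (0.13). The cause was not tested. When each sample was left out in turn, the maturation change in cDC1 ranged from -1.49 to 0.41 for Ccl6 and from -0.030 to 0.27 for Cxcl10. The splenic subset difference ranged from -0.20 to 1.62 for Ccl17 and from -0.69 to 0.043 for Ccl22, the mature one from -0.58 to 0.028 for Cxcl9, and the difference of tissue effects from -0.33 to 0.12 for Ccl9 and from -0.37 to 0.17 for Cxcl16 (0.018 without splenic cDC1 replicates 4 and 5).

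Same-numbered cDC1 and cDC2 samples had correlations of their deviations from the group means of -0.0398, 0.333 and 0.455 in the spleen and -0.106, 0.21 and 0.153 in the immature thymus. Pairs of different number had -0.491 to 0.336 and -0.385 to 0.267. With 3 numbers per group, these values cannot settle whether the numbers pair the samples. Numbers carried by mature samples were not checked. With the name number as a replicate block, 5 ligands were called in the spleen (2738 genes in all) and 8 in the immature thymus (2472 genes), against 5 (2663) and 8 (2602) without the block. Low read numbers limit Ccl17 in the spleen, Ccl9 in immature cDC1, Ccl5 in immature thymic cDC1 and Ccl3, Ccl4 and Ccl6 in mature cDC1. Lane and maturation cannot be separated beyond the comparison within lane 8.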
